A study of Mus musculus with 3 samples.

Results

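Genes of the interferon response and of antigen presentation were followed in 3 mouse cultures, with 1 RNA sequencing library each. The list held 41 gene names chosen by function, with earlier results of these data known. Of these names, 40 matched a named row among the 47725 genes of the tables. The row of Mx2 carried no name and was found by its gene identifier, so it is described but not counted. The cultures came from embryonic stem cell lines labelled WT (wild type), BM (Barhl1 mutant, a change the labels do not describe further) and BEM (mutated at an E-box site that the labels name E3). Barhl1 encodes a homeobox transcription factor of inner ear hair cells. In every line, otic progenitors were kept in co-culture until day 9 over chicken embryonic utricle stroma that had been mitotically inactivated, in medium with 25 ng/ml EGF and 1 µM retinoic acid. The labels do not say whether chicken reads were set apart or how many clones stand behind each line.

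Interferons bind receptors on the cell surface, and the kinases there activate transcription factors. A complex that contains Stat2 and Irf9 binds the interferon-stimulated response element (ISRE) in promoters, while the gamma-activated site (GAS) serves the response to interferon gamma. Among the induced genes are sensors of viral RNA, antiviral effectors and the parts of the class I pathway, in which peptides made by the proteasome are carried by Tap1 and Tap2 onto class I molecules. Nearly all cell types can display class I molecules, whereas class II molecules belong mainly to professional antigen-presenting cells such as dendritic cells, B cells and activated macrophages.

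The libraries held 20111794 to 23813123 reads in all, totals inferred from the FPKM of genes with 1 read. With 1 library per line, no difference below has a replicate check, and nothing is said of its significance. Values are FPKM, which divides reads by gene length and library size, so levels of different genes can be set side by side. Folds are ratios of FPKM, each followed in brackets by its exact 95% counting interval, which covers counting error only. The 2-fold counts use log2(FPKM + 0.5), whose pseudocount understates the ratio of low genes. The labels call these cultures hair cell-like cells. Atoh1, which sets off hair cell differentiation, was present in all (270.2 FPKM in WT, 236 in BM, 241 in BEM), while Pou4f3, needed for hair cell survival, reached at most 0.0211 FPKM. Other hair cell markers went both ways. Myo7a was 13.9-fold higher in BM (11.6 to 16.8), Espn 3.67-fold lower (2.92 to 4.66) and Myo6 1.79-fold lower (1.60 to 1.996). Gfi1 had 0.615 FPKM in WT and no read in BM or BEM. Otof and Calb2 averaged under 1 FPKM. Transcripts of the targeted gene Barhl1 were at 126 FPKM in WT against 95.1 in BM and 0.0107 in BEM, so they were nearly absent from BEM and present in BM. The FPKM of Atoh1 and Barhl1 could not be turned back into whole reads, so their levels carry no counting interval.

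Several antigen presentation and interferon genes were higher in BM and BEM than in WT, led by Nlrc5, Irf7, Zbp1 and H2-D1, while the class II genes H2-Ab1, H2-Eb1 and Cd74 and the antiviral gene Bst2 were lower. Averaged over the libraries, 35 of the 40 members reached 1 FPKM, and these 5 did not: Psmb9, Mx1, H2-Aa, H2-Eb1 and Ciita. Among the 35, BM was above WT by 2-fold or more for 11 and below it for 3, against 10.5% and 15.3% of the 12875 genes that passed the same filter. In BEM the counts against WT were again 11 higher and 3 lower, where the background was 10.7% and 15.3%. Both comparisons use the same WT library. Nlrc5, Irf7 and Zbp1 passed the filter only through BM and BEM, and Cd74 and H2-Ab1 only through WT, so these 5 genes had to differ. Among the 30 members of at least 1 FPKM in every library, 8 were 2-fold higher, 1 was 2-fold lower (Bst2) and 21 were within 2-fold in BM, against 7.33% higher and 10.9% lower of the 11092 genes at that level. Without the filter, 11 of 40 were higher and 4 lower in BM, against 3.61% and 6.36% of all genes, and 11 and 4 in BEM, against 3.63% and 6.24%. Most genes of that background averaged under 1 FPKM, unlike the members, so it is not a like set. With the further demand that the counting interval exclude 1, the counts were again 11 and 3 in each comparison, against 10.3% and 14.8% of genes in each. At any fold, the interval against WT excluded 1 for 80.3% of genes in BM and 80.8% in BEM, so it sets few genes apart. At 4-fold, 5 members were higher and 2 lower in BM, against 3.91% and 5.76%, and 5 and 2 in BEM, against 3.94% and 5.79%. In both comparisons these were H2-D1, Psmb8, Nlrc5, Irf7 and Zbp1 (higher) and Cd74 and H2-Ab1 (lower). All but H2-D1 and Psmb8 are among the 5 genes that had to differ, so the 4-fold count adds little. A pseudocount of 5 FPKM ended the 2-fold calls of Nlrc5, Zbp1, Gbp2, Gbp3, Parp14 and Cd74 in both comparisons, and of Stat2 in BM. The median log2 ratio of the 35 was 0.62 in BM, beside -0.08 for all genes that passed, and 0.61 in BEM, beside -0.07.

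Markers of other cell types also differed between the libraries (FPKM sums are over each whole list). The 14 macrophage markers found summed to 15.9 FPKM in WT against 1888 in BM and 1936 in BEM, and 13 of them were at least 2-fold higher in BM. Most of the sum in BM and BEM was Lyz2 (3.08, 1380 and 1409 FPKM across WT, BM and BEM). C1qa and Spi1 had no read in WT. The 7 fibroblast markers summed to 1578, 4322 and 4212 FPKM, most of it Col1a1 (1009, 2645 and 2554 FPKM). Of these markers 4 were at least 2-fold higher in BM. Pdgfra was 1.96-fold lower (1.90 to 2.03) and Dcn 1.36-fold lower (1.32 to 1.40). The 5 epithelial markers summed to 37.3, 5.39 and 5.16 FPKM. The 7 dendritic cell markers summed to 8.19 FPKM in WT against 0.796 in BM and 0.982 in BEM, and went both ways. Most of the WT sum was Zbtb46, at 6.04 FPKM and the 1 marker of the list that averaged 1 FPKM, and Flt3 and Siglech had no read there. Zbtb46 was 24.6-fold lower in BM (18.1 to 34.3), Clec9a 18.0-fold lower (6.74 to 67.6) and Ccr7 39.2-fold lower (6.66 to 1584). Clec9a had 1.08, 0.0604 and 0.0638 FPKM across the libraries and Ccr7 0.985, 0.0251 and 0. Itgax was 7.50-fold higher in BM (3.17 to 21.6), at 0.058, 0.435 and 0.533 FPKM across the libraries. B cell markers summed to at most 0.354 FPKM and T and NK cell markers to at most 0.0785 FPKM in any library, with the T cell genes Cd3e and Cd3d at 0 in each. In bulk RNA, more cells of a type and more RNA per cell cannot be told apart. The part of macrophages, fibroblasts or dendritic cells in the differences of the members was not tested.

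**Figure D1:**
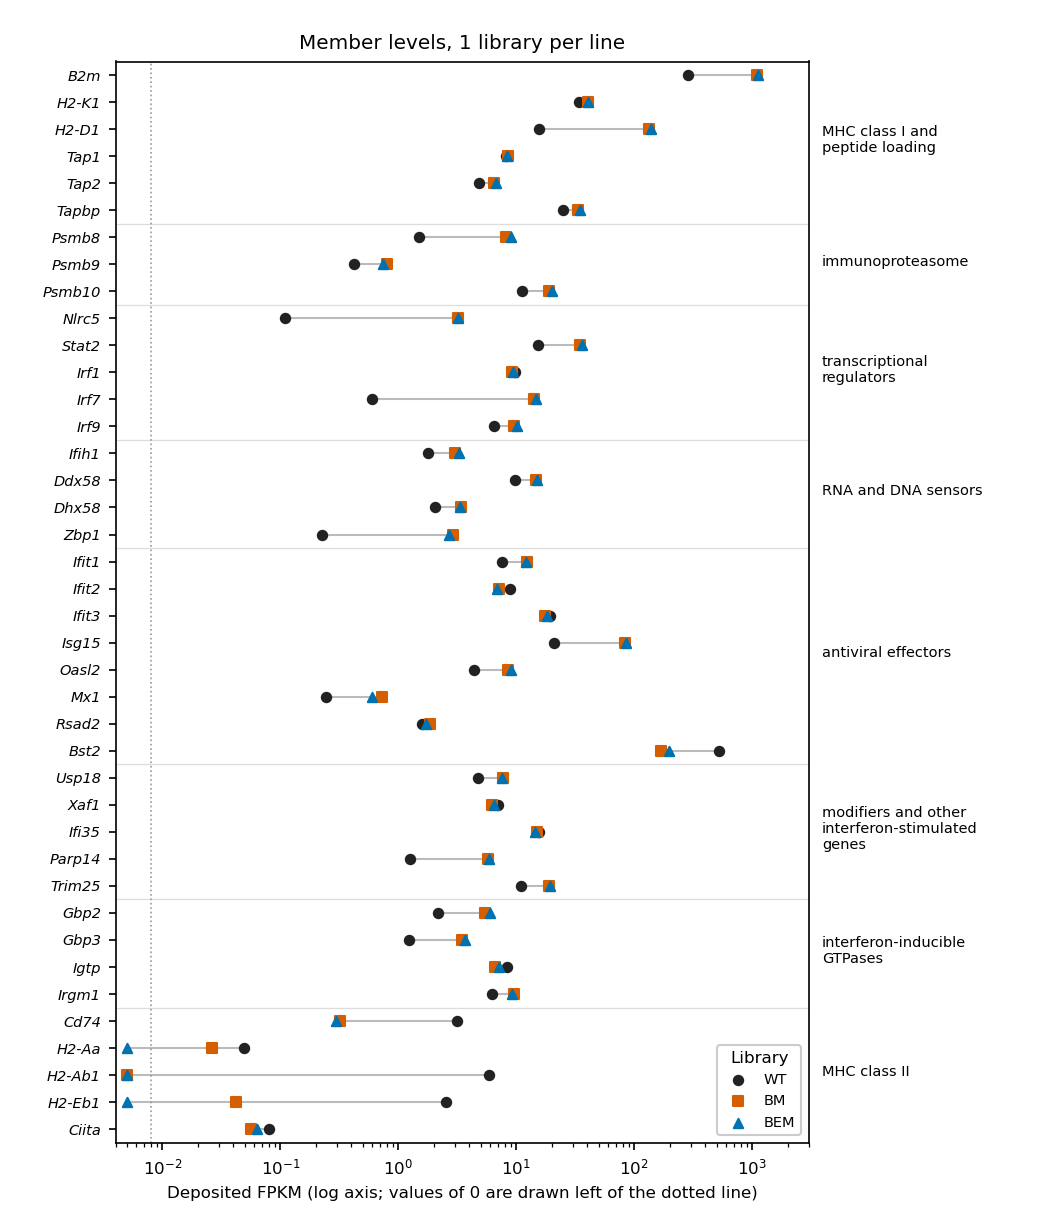
Deposited FPKM of the 40 members in the WT, BM and BEM libraries, grouped by role, on a log axis with 1 point per library. BM and BEM lie close together on most lines, B2m is the highest member in BM and BEM and Bst2 in WT, and Cd74, H2-Ab1 and H2-Eb1 lie to the left of WT in BM and BEM.

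**Figure D2:**
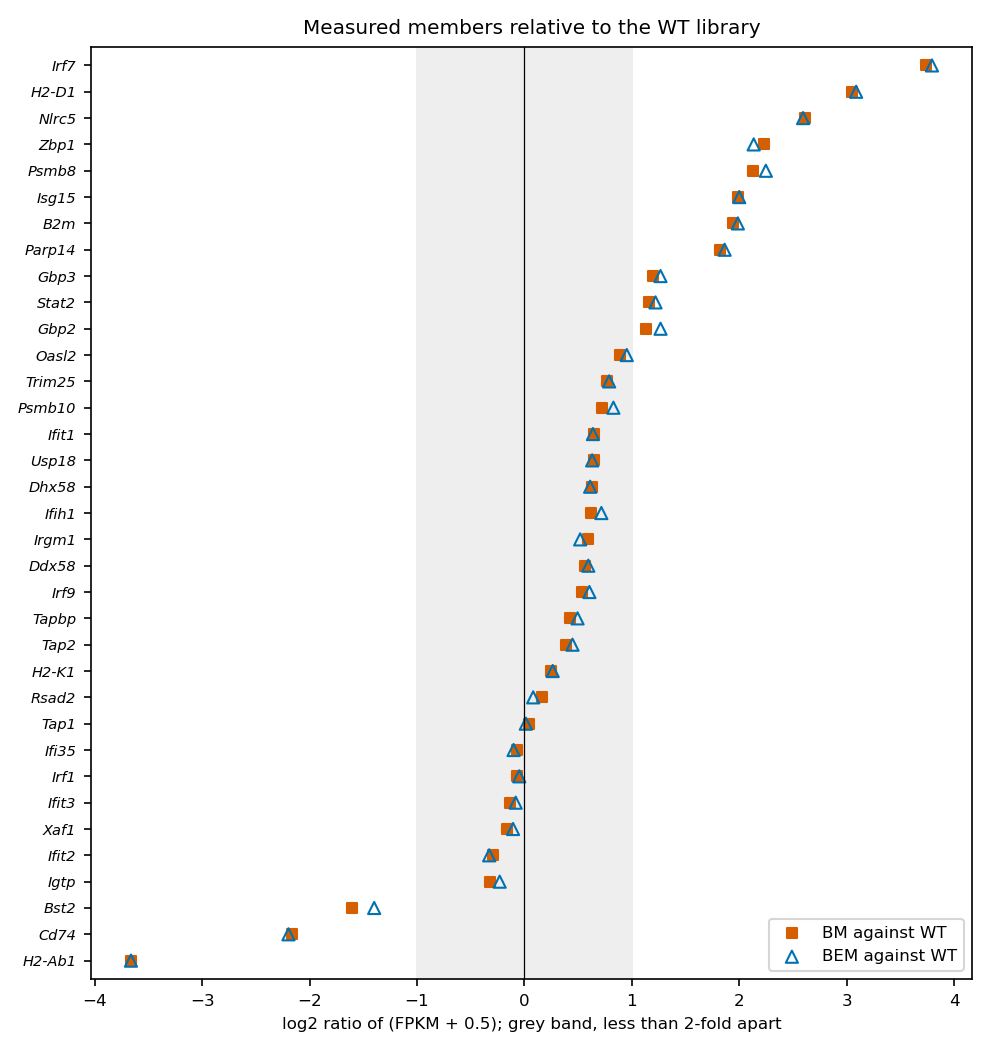
log2 ratio of (FPKM + 0.5) for the 35 members with a mean of at least 1 FPKM, BM (squares) and BEM (triangles) against the same WT library, sorted by BM. The ratios run from -3.66 for H2-Ab1 to 3.74 for Irf7 in BM, and 11 members lie above and 3 below the grey 2-fold band in each comparison.

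Of the 6 class I and peptide loading members, B2m and H2-D1 were at least 2-fold higher in BM and BEM, and the other 4 were within 2-fold of WT. B2m, on chromosome 2 from 122147686 to 122153083 in GRCm38, encodes the light chain shared by class I molecules. It stood at 283 FPKM in WT against 1092 in BM and 1125 in BEM. It was 3.85-fold higher in BM (3.74 to 3.97) and 3.97-fold higher in BEM (3.85 to 4.09), which took it from rank 133 to rank 21 among all genes in each mutant library. H2-D1 (chromosome 17, 35262730 to 35267499), a classical class I heavy chain, stood at 15.7 FPKM in WT against 134 in BM and 137 in BEM. That is 8.53-fold higher in BM (7.95 to 9.17) and 8.75-fold higher in BEM (8.16 to 9.39).

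The other classical heavy chain, H2-K1 (chromosome 17, 33996017 to 34000347), lay close together at 33.8, 40.2 and 40.6 FPKM across WT, BM and BEM, 1.19-fold higher in BM (1.12 to 1.27). H2-D1 therefore made up 31.8% of the summed FPKM of this heavy chain pair in WT, 76.9% in BM and 77.2% in BEM. Class I genes are near-identical in part and vary between mouse strains, so reads may be split between them, and the counting behind the tables is not described. Peptide loading genes were all within 2-fold. Tapbp, the tapasin that holds class I molecules to the peptide transporter, stood at 24.7, 33.2 and 34.99 FPKM, and shares bases with Zbtb22 on the same strand, at 7.99, 10.998 and 11.5 FPKM. Tap2 stood at 4.79, 6.42 and 6.71 FPKM. Its partner in the peptide transporter, Tap1, had 8.21, 8.50 and 8.29 FPKM, and its interval against WT held 1 in BM (0.945 to 1.13) and in BEM (0.925 to 1.10).

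The immunoproteasome replaces the catalytic subunits of the constitutive proteasome, with Psmb8 in the place of Psmb5, Psmb9 in that of Psmb6 and Psmb10 in that of Psmb7. Psmb8 stood at 1.49 FPKM in WT against 8.21 in BM and 8.96 in BEM. The WT library was the low one, 5.51-fold below BM (3.46 to 9.13) and 6.01-fold below BEM (3.82 to 9.88). Psmb10 had 11.2, 18.8 and 20.2 FPKM, 1.68-fold higher in BM (1.45 to 1.94). Psmb9 was low throughout at 0.418, 0.802 and 0.746 FPKM. In relation to its constitutive counterpart per length, Psmb8 went from 3.13% of Psmb5 in WT to 12.9% in BM and 12.9% in BEM, and Psmb10 from 78.6% of Psmb7 to 92.5% and 94.8%. Psmb9 was 0.588% of Psmb6 in WT, 1.65% in BM and 1.44% in BEM. The counterparts themselves were within 2-fold, with Psmb5 at 47.7, 63.6 and 69.6 FPKM, Psmb6 at 71.1, 48.4 and 51.7 and Psmb7 at 14.2, 20.3 and 21.3.

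Among the regulators, Nlrc5 and Irf7 were the farthest apart. Nlrc5, the transactivator of class I genes, on chromosome 8 from 94434356 to 94527272, had 0.109 FPKM in WT against 3.23 in BM and 3.18 in BEM. It was 29.6-fold higher in BM (18.5 to 50.3) and 29.1-fold higher in BEM (18.3 to 49.5), on 18 reads in WT against 497 and 579. Irf7, which amplifies type I interferon production, on chromosome 7 from 141262706 to 141266481, had 0.599, 14.2 and 14.8 FPKM, 23.7-fold higher in BM (17.2 to 33.5) and 24.6-fold in BEM (17.9 to 34.8). The gene overlaps Phrf1 on the opposite strand, which was near level at 14.5, 15.8 and 14.9 FPKM.

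The partners of the ISRE-binding complex were less far apart. Stat2 stood at 15.1 FPKM in WT against 34.5 in BM and 35.9 in BEM, 2.28-fold higher in BM (2.14 to 2.43). On the log2 scale with the pseudocount it fell under 2-fold in BM, at 0.93, when the libraries were scaled to housekeeping genes. Irf9, the DNA-binding partner, had 6.48, 9.60 and 10.1 FPKM, 1.48-fold higher in BM (1.35 to 1.63). Irf9 shares bases with Rnf31 on the same strand, which had 9.08, 9.07 and 7.98 FPKM. Irf1, which acts in the response to interferon gamma, did not stand apart at 9.66, 9.17 and 9.33 FPKM, and its interval in BM against WT held 1.

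Of the sensors of foreign nucleic acid, Zbp1, which binds left-handed nucleic acid, was 2-fold apart. It had 0.223 FPKM in WT against 2.89 in BM and 2.68 in BEM, 12.9-fold higher in BM (7.88 to 22.6) and 12.0-fold in BEM (7.32 to 20.9). The cytosolic RNA helicases were higher by less than 2-fold. Ddx58 (RIG-I) stood at 9.66, 14.5 and 14.8 FPKM, 1.51-fold higher in BM (1.41 to 1.61). Ifih1 (MDA5) had 1.80, 3.03 and 3.27 FPKM, and Dhx58 (LGP2), which modulates both of these, had 2.03, 3.42 and 3.36.

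Antiviral effectors went both ways. Isg15, a ubiquitin-like modifier, stood at 20.8 FPKM in WT against 83.9 in BM and 84.7 in BEM, 4.03-fold higher in BM (3.58 to 4.56) and 4.07-fold in BEM (3.62 to 4.59). Bst2 (tetherin), which holds budding virus particles at the membrane, was the highest member in WT, at 519.8 FPKM and rank 59 among all genes. It had 170.1 FPKM in BM and 197 in BEM, 3.06-fold lower than WT in BM (2.93 to 3.19) and 2.64-fold lower in BEM (2.54 to 2.75). Isg15 and Bst2 thus lay on opposite sides of WT.

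The promoters of several members hold the ISRE letters whether or not the gene differed between libraries. Promoter windows came from RefSeq on build GRCm38.p6, from 250 bases before to 50 after the start, and 30 of the 40 members had one. The ISRE core, searched as GAAA, any 2 bases and GAAA again on either strand, was in 13 of these 30 (43.3%), against 3.99% of 27025 genes. The GAS letters TTCNNNGAA, which read alike on both strands, were in 6 of 30 (20%), against 9.55%. The members were picked as interferon genes, so a high ISRE share follows from the choice. Of measured members with a window, the ISRE letters were in 5 of 8 that were 2-fold higher in BM and in 7 of 18 that were within 2-fold, and the 1 lower member with a window, Bst2, held them too. A match describes letters and is not a bound site.

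The 150 bases before the start are printed 5′ to 3′ for 6 members, picked after their values were seen, with ISRE and GAS letters in capitals, to set genes that were higher (Isg15, B2m, Gbp2), less than 2-fold apart (Ifit1, Igtp) and lower (Bst2) beside each other. Their positions in GRCm38.p6 are chr4:156200819-156200968 on the minus strand for Isg15, chr2:122147537-122147686 (plus) for B2m, chr3:142620513-142620662 (plus) for Gbp2, chr19:34640739-34640888 (plus) for Ifit1, chr11:58199406-58199555 (plus) for Igtp and chr8:71537473-71537622 (minus) for Bst2.
Isg15: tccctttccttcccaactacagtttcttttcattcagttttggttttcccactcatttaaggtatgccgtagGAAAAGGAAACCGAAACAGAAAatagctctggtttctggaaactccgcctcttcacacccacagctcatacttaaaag
B2m: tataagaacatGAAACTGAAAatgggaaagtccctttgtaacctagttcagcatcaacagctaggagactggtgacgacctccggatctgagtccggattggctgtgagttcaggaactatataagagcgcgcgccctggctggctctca
Gbp2: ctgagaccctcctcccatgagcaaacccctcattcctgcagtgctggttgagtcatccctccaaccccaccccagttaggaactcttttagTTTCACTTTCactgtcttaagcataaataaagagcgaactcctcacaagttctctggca
Ifit1: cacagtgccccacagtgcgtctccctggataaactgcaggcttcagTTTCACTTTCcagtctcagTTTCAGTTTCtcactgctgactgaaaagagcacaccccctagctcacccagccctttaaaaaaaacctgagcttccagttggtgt
Igtp: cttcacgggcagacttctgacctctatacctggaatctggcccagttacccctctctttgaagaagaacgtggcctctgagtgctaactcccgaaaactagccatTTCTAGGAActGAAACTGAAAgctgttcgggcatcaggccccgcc
Bst2: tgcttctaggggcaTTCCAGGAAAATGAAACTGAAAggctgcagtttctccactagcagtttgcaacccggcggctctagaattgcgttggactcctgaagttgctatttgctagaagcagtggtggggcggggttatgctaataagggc
In Isg15 the capitals are 3 overlapping ISRE matches that begin 78, 72 and 66 bases before the start. B2m has 1 match that begins 139 bases before it and Gbp2 has 1 at 59. In Ifit1 there are 2 separate matches, at 104 and 85, and in Igtp a GAS match at 45 and an ISRE match at 34. Bst2 carries 1 run made of a GAS match at 136 that overlaps the first of 2 ISRE matches, at 130 and 124. Isg15 and Bst2, which lay on opposite sides of WT, thus both hold several ISRE matches, and Ifit1, with 2 matches, was within 2-fold.

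The remaining effectors that averaged 1 FPKM were less than 2-fold apart on the log2(FPKM + 0.5) scale. Ifit1, Ifit2 and Ifit3, which bind viral RNA or act in complexes that do, stood at 7.62, 12.2 and 12.1 FPKM, at 8.80, 7.08 and 6.91 FPKM, and at 19.4, 17.6 and 18.3 FPKM across WT, BM and BEM. Ifit1 was thus 1.61-fold higher in BM (1.42 to 1.82), Ifit2 1.24-fold lower (1.11 to 1.39), and the interval of Ifit3 held 1. These genes lie with relatives such as Ifit3b in 1 cluster on chromosome 19, and close relatives may share reads. Oasl2, a relative of the oligoadenylate synthetases, had 4.41, 8.58 and 9.01 FPKM, close to the 2-fold line. Its log2 ratio of 0.89 in BM became 1.02 with median-of-ratios scaling, and that of 0.95 in BEM passed 1 under 5 alternatives, from 1.01 to 1.07.

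Mx1, an antiviral GTPase, was low at 0.242, 0.723 and 0.599 FPKM. Mx2, annotated as a polymorphic pseudogene and read from an unnamed row, had 2.46, 3.29 and 2.96 FPKM, 1.33-fold higher in BM (1.10 to 1.62). Rsad2 (viperin) stayed between 1.59 and 1.84 FPKM, with intervals that held 1.

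Of the modifiers and other interferon-stimulated genes, Parp14, an ADP-ribosyltransferase, was 2-fold apart. It stood at 1.26 FPKM in WT against 5.71 in BM and 5.91 in BEM, 4.52-fold higher in BM (3.94 to 5.21). Trim25, the ubiquitin ligase that activates RIG-I, had 10.99, 19.0 and 19.3 FPKM, 1.73-fold higher in BM (1.62 to 1.85). Usp18, the protease that removes Isg15 from proteins and damps receptor signalling, had 4.72, 7.70 and 7.59 FPKM. Ifi35 stood at 15.6, 14.9 and 14.5 FPKM and the apoptosis factor Xaf1 at 7.03, 6.21 and 6.50, each within 2-fold of WT.

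The interferon-inducible GTPases attack vacuoles that hold microbes. Gbp2 stood at 2.18, 5.38 and 5.94 FPKM across WT, BM and BEM, 2.47-fold higher in BM (1.98 to 3.09), and Gbp3 at 1.24, 3.47 and 3.68, 2.81-fold higher in BM (2.18 to 3.64). With housekeeping scaling, the log2 ratio of Gbp2 in BM was 0.93. Irgm1 had 6.20, 9.58 and 9.11 FPKM and Igtp 8.42, 6.64 and 7.10 FPKM. Igtp was thus slightly lower in the mutant libraries, by 1.27-fold in BM (1.08 to 1.49), and shares bases with Irgm2, which had 4.02, 6.23 and 6.25 FPKM.

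Of the 5 class II members, Cd74, H2-Ab1 and H2-Eb1 were lower in BM and BEM, and H2-Aa and Ciita were near 0 throughout. H2-Ab1, the beta chain of the I-A molecule, on chromosome 17 from 34257689 to 34269419, stood at 5.84 FPKM in WT and had no read in BM or BEM. With the fewest reads its WT level allows (206), its counting interval put it at least 51.6-fold lower in BM and at least 61.1-fold lower in BEM. H2-Eb1, the beta chain of I-E, had 2.55, 0.0420 and 0 FPKM, or at the fewest 65, 1 and 0 reads. It was 60.6-fold lower in BM (10.5 to 2432) and, by its counting interval, at least 18.9-fold lower in BEM. Cd74, the invariant chain that guides class II molecules, on chromosome 18 from 60803848 to 60812652, had 96, 9 and 10 reads, or 3.16, 0.317 and 0.298 FPKM. The level of Cd74 was 9.95-fold lower in BM (5.03 to 22.4) and 10.6-fold lower in BEM (5.52 to 22.8).

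H2-Aa, the alpha chain that pairs with H2-Ab1, was close to 0 in every library, at 0.0495 FPKM in WT against 0.0265 in BM and 0 in BEM. Ciita, the transactivator of class II genes, stood at 0.0795, 0.0568 and 0.0639 FPKM, and its interval in BM against WT held 1. The WT library therefore held H2-Ab1 and H2-Eb1 with little H2-Aa and Ciita. H2-Ab1, H2-Eb1, Psmb8, Psmb9, Tap1 and Tap2 are neighbours on chromosome 17, from 34181987 (Psmb9) to 34316674 (H2-Eb1), and within that stretch Psmb8 was higher, the transporter genes within 2-fold and H2-Ab1 and H2-Eb1 lower in BM and BEM, while H2-Aa, between them, was near 0 in every library.

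**Figure D3:**
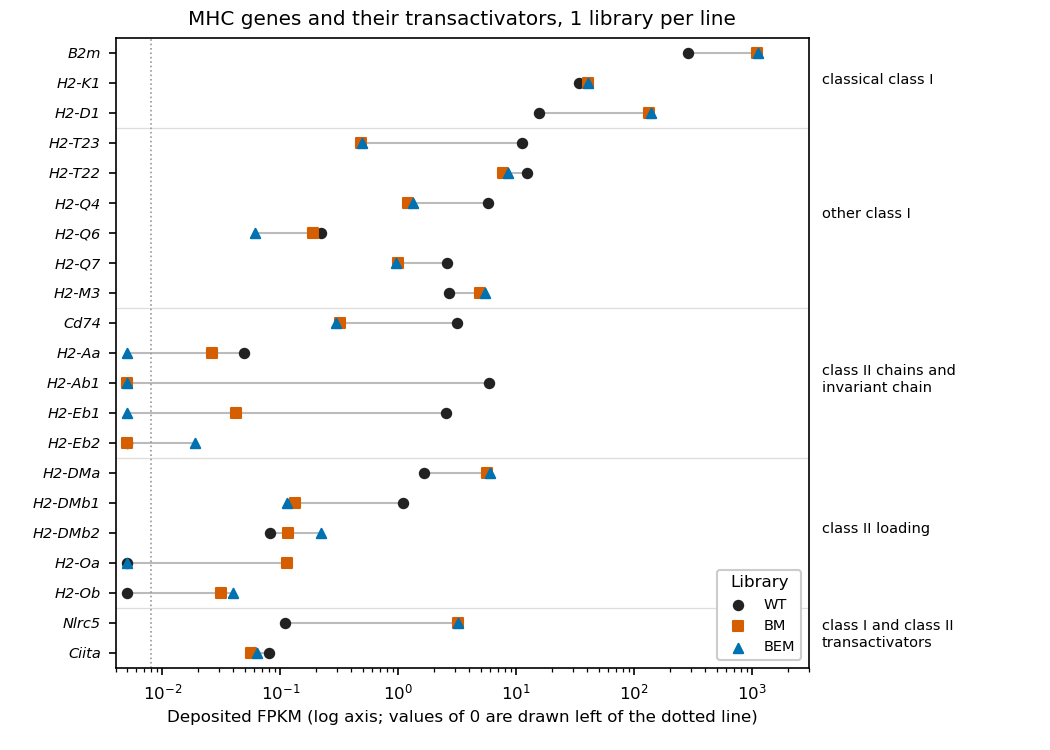
Deposited FPKM of MHC genes and of the transactivators Nlrc5 and Ciita in the WT, BM and BEM libraries, on a log axis with 1 point per library. B2m and H2-D1 lie to the right in BM and BEM, while H2-T23, H2-Q4, H2-Ab1, H2-Eb1 and Cd74 lie to the right in WT.

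Between BM and BEM few genes of any kind differed. None of the 35 members was 2-fold apart between them, against 0.784% of all genes that passed, and log2 ratios of BEM to BM ran from -0.09 to 0.21. The counting interval excluded 1 for 2 members, against 10.6% of genes. These were Bst2, 1.16-fold higher in BEM than in BM (1.10 to 1.22), and B2m, 1.03-fold higher (1.01 to 1.05).

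Other genes of the same pathways gave a mixed picture. These lists too were chosen by function with earlier results of these data known, so their shares are description only. The 5 interferon genes examined (Ifnb1, Ifna4, Ifna2, Ifng and Ifnl3) had no read in any library, a count that allows up to 3 reads per library. Of 15 genes of interferon receptors and signalling, 2 were at least 2-fold higher (13.3%) and 1 lower (6.67%) in BM, near or below the 10.5% and 15.3% of all genes, with a median log2 ratio of -0.19. Irf5, a transcription factor of myeloid cells, had 0.495, 6.54 and 5.64 FPKM across WT, BM and BEM, 13.2-fold higher in BM (9.15 to 19.7). Ptpn6, a phosphatase of blood cells, was 22.2-fold higher (13.9 to 37.9), from 0.298 to 6.62 FPKM. Socs3, a feedback inhibitor of cytokine signalling, was 3.55-fold lower (3.22 to 3.91), from 32.1 to 9.05 FPKM.

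Of 6 measured sensors and adaptors, 2 were higher (33.3%) and 0 lower in BM, against 10.5% and 15.3% of all genes. Tlr7, a receptor for single-stranded RNA, was without reads in WT and had 310 in BM, at least 89.5-fold higher by its counting interval. Ifi204 was 3.13-fold higher in BM (2.71 to 3.62). The DNA sensor Mb21d1 (cGAS) was 2.13-fold higher as an FPKM ratio (1.62 to 2.82), at 0.899 and 1.92 FPKM. Among 30 other interferon-stimulated genes, 9 were higher (30%) and 1 lower (3.33%) in BM, against 10.5% and 15.3% of all genes. In BEM 10 were higher (33.3%) and 1 lower (3.33%), against 10.7% and 15.3%. Trim30a was 9.63-fold (7.24 to 13.0) and the oligoadenylate synthetase Oas2 11.1-fold higher in BM (7.77 to 16.2). Ifitm1, a membrane protein that blocks viral entry, was 5.70-fold lower (4.45 to 7.39), from 19.2 FPKM in WT to 3.36 in BM.

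Further class I genes split, with 2 of 11 measured genes higher (18.2%) and 3 lower (27.3%) in BM, against 10.5% and 15.3% of all genes. Erap1, which trims peptides for class I molecules, was 3.04-fold higher (2.65 to 3.50). The non-classical heavy chain H2-T23 (Qa-1) went the other way from H2-D1, at 11.1 FPKM in WT against 0.482 in BM and 0.494 in BEM, 23.1-fold lower in BM (15.8 to 34.96), and H2-Q4 was 4.72-fold lower (3.60 to 6.29). Of 5 measured genes of class II loading and costimulation, 3 were higher (60%) and 1 lower (20%) in BM, against the same shares of all genes. Ctss, a protease that degrades the invariant chain, had 1 read in WT and 2238 in BM. Cd80, a ligand for T cells, was 5.02-fold higher (3.85 to 6.64), while Cd40, a receptor for T cell help, was 4.03-fold lower (3.46 to 4.70). In all, 18 of 70 measured genes on these lists were higher (25.7%) and 6 lower (8.57%) in BM, against 10.5% and 15.3% of all genes.

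**Figure D4:**
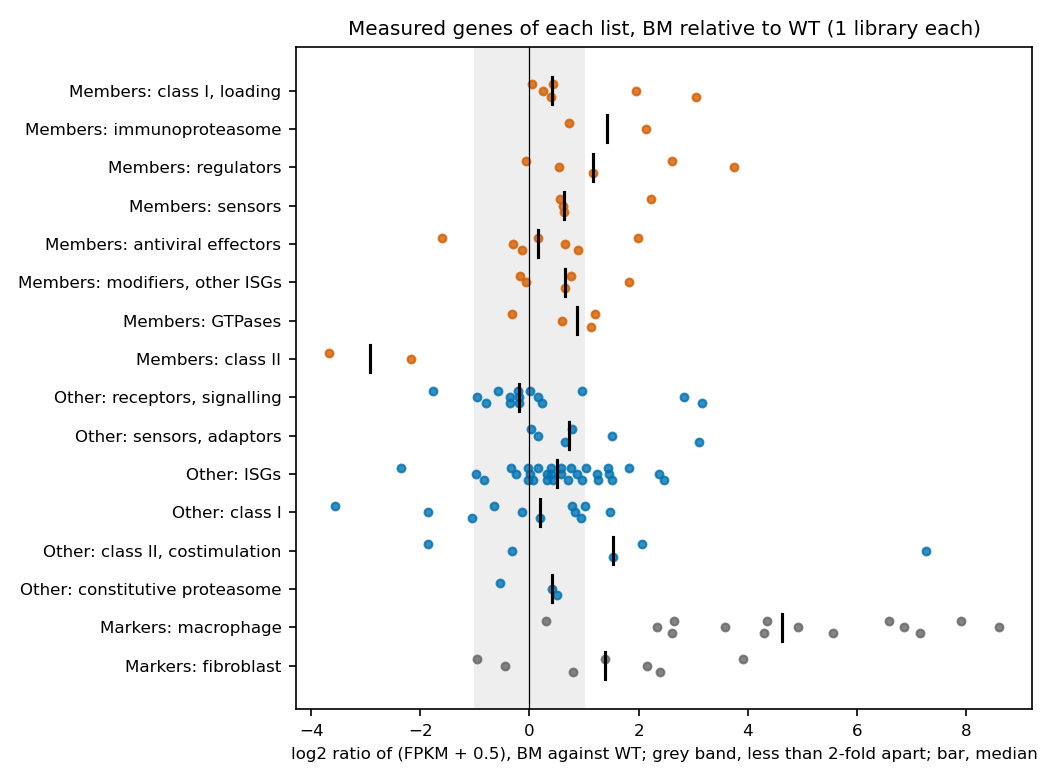
log2 ratio of (FPKM + 0.5), BM against WT, for the genes of each list with a mean of at least 1 FPKM, with 1 point per gene and a bar at the median. Macrophage markers have a median of 4.63 on this scale, against 0.62 over the 35 members.

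The authors' deposited table marked 6 members as significant for BM against WT (H2-D1, Nlrc5, Irf7, Zbp1, H2-Ab1 and H2-Eb1). For BEM against WT it marked these and Cd74. Over all 47725 genes the authors' deposited table marked 3.26% and 3.44%. Only 12875 of these genes averaged 1 FPKM, against 35 of the 40 members, so the shares are not of a like set. In the authors' deposited table B2m had log2 ratios of 1.95 and 1.99 and an FDR of 0.21 and 0.197, and no member was marked for BEM against BM. The sources used here do not say how p-values were reached without replicates.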

How the data were processed

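Messenger RNA of 3 cultures was sequenced, 1 library per line. The authors deposited 3 tables, 1 for each pair of libraries, with FPKM per gene, per the file headers. The authors' log2 ratio, p-value and FDR per gene stood beside them in the deposited tables. Per the submitters' processing notes, TopHat2, HTSeq and edgeR were used, without a version, and the build was GRCm38. Each table has 4 emptied lines, not analysed here.

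The tables hold FPKM and no counts, so FPKM were compared as log2(FPKM + 0.5), without further scaling, for genes averaging 1 FPKM or more. Members and lists were chosen with earlier results of these data known. Members of at least 10 FPKM in 1 library or 2-fold apart were to be named with values, as were, from each other list, up to 3 measured genes with the largest ratio in BM, at least 20 reads and an interval excluding 1, plus Psmb5 to Psmb7. A further gene that this rule names is not reported here.

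FPKM were turned back into reads with GENCODE M21 gene lengths and library totals found from genes of 1 read (21555823 in WT, 20111794 in BM and 23813123 in BEM). Of the measured genes 72.1% gave whole reads, within 0.0001, at the annotated length, and 24 of 40 members did. For 8 members a single other length between 0.5 and 1.5 times the annotated one worked. The other 8 took the smallest working length of at least 200 bases, which gives the widest interval. For 0.249% of the measured genes, Atoh1 and Barhl1 among them, no reads could be recovered. Intervals are exact (Clopper-Pearson) at 95%, from scipy 1.17.1 in Python 3.11.15, and cover counting error only, since reads of amplified libraries are not independent molecules. The procedure was tested on simulated data of genes at the annotated length only, so the search for other lengths was not tested. The library kit is not stated to keep strand, so overlapping genes may share reads. Other scalings, pseudocounts, filters and thresholds were tried.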

Additional observations from a re-analysis of the deposited data

How the results depend on the processing

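The counts of members 2-fold apart from WT were within 1.5 times the reported ones with median-of-ratios, upper quartile, TMM-like and housekeeping scaling, a pseudocount of 0.05, no filter, the counting interval and the authors' deposited log2 ratio. With a pseudocount of 5 FPKM, 5 members were higher in BM and 6 in BEM. A mean of at least 10 FPKM left 13 members, 4 higher and 1 lower in BM and in BEM. The share of all genes was not computed under either setting, so these counts have no background to be read against. At a 4-fold threshold 5 members were higher in BM and 5 in BEM, against 3.91% and 3.94% of all genes. Nlrc5, Irf7 and Zbp1 were among them and passed the filter only through BM and BEM, so they had to differ. The median log2 ratio of the members, 0.62 in BM and 0.61 in BEM, became 0.74 and 0.73 with median-of-ratios scaling, 0.43 and 0.43 with housekeeping scaling and 0.38 and 0.40 with a pseudocount of 5, which pulls ratios towards 0 by construction. The median of all genes was then 0.05 and 0.05, -0.30 and -0.27, and -0.04 and -0.04. None of the members 2-fold apart changed sign under these settings. Ratios of Tap1, Irf1, Ifit3, Rsad2, Ifi35 and Xaf1, all within 2-fold, changed sign under 1 or more scalings, so no direction is given for them. The ISRE share of member promoters was 36.7% with the 250 bases before the start alone, against 3.46% of all genes. In BEM against BM no member was 2-fold apart under any of these settings. No paired analysis was possible because each line had 1 library. Depth limits the class II genes most, since Cd74 rests on 9 and 10 reads in BM and BEM and H2-Eb1 and H2-Aa on fewer.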
